A study of Homo sapiens with 24 samples.

Results

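The response of liver cancer cells to melatonin was compared with that of gut cancer cells. The liver lines were Huh-7 and HepG2, which the study describes as hepatocellular carcinoma lines. The gut lines were HGC-27 and HCT-8, described there as a gastric and a colorectal adenocarcinoma line. For each gene the response of a line was its mean log2 intensity in cells given melatonin for 24 h minus that in the controls of the same line. The difference between the tissues was the mean response of the 2 liver lines minus the mean response of the 2 gut lines, taken from 1 limma fit over all lines. A gene was kept when this difference passed an adjusted p of 5% (Benjamini-Hochberg over all genes) and when both liver responses lay on the same side of both gut responses. Of 18265 genes, 3633 were kept. These are 4 established lines in culture, so a tissue stands for 2 lines and not for an organ. Standard errors and p-values come from the spread of replicate cultures within a group. They leave out the spread between the lines of a tissue.

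Messenger RNA was measured on 24 arrays, with 3 melatonin and 3 control cultures for each line, described as biological replicates. The treatment was a single millimolar dose. The labels place the controls at 0 h of melatonin, whereas the study's methods describe ethanol-treated controls of the same time, so time in culture and solvent cannot be told apart from melatonin with the labels. The liver lines grew in Dulbecco's modified Eagle's medium and the gut lines in RPMI medium, both with serum, so the medium and the tissue cannot be told apart either. HepG2 melatonin replicate 1 was left out, with the signal of the 5′ end of a control transcript low on it: the 3′ minus 5′ difference of ACTB was 8.34 on the log2 scale there and 0.08 to 0.72 on the 23 arrays used. HepG2 responses therefore rest on 2 melatonin and 3 control arrays. Array medians ran from 2.13 to 3.33 over the lines but by at most 0.07 within a line, so levels are compared only within a line or as a gene's percentile among all genes of its group.

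The labels of the lines were set against marker genes. In control cells the median percentile of 15 hepatocyte markers was 97.4 in Huh-7 and 99.1 in HepG2, against 14.8 in HGC-27 and 28.0 in HCT-8. Of 10 intestinal markers, 3 lay above the 75th percentile in Huh-7 controls (CDX2, CDH17 and ISX) and 1 in HepG2 controls, against 0 in HGC-27 and 6 in HCT-8 controls. Of 9 gastric markers, 2 lay above it in Huh-7 controls, TFF1 at percentile 83.7 and TFF2 at 86.9, and 1 each in HepG2 and HCT-8 controls. None did in HGC-27 controls, and CLDN18, a junction protein of gastric epithelium, was at percentile 19.4 there. HGC-27 cells instead carried 5 of 8 fibroblast markers above the 75th percentile, among them the matrix genes POSTN, COL3A1 and LUM, while the fibroblast medians of the other lines were 8.9 to 11.9. HGC-27 is thus called here by its label, without gastric character in these data. All 8 fibroblast markers fell on average in the gut lines, but 7 of them fell in HGC-27 alone and were not kept.

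**Figure D1:**
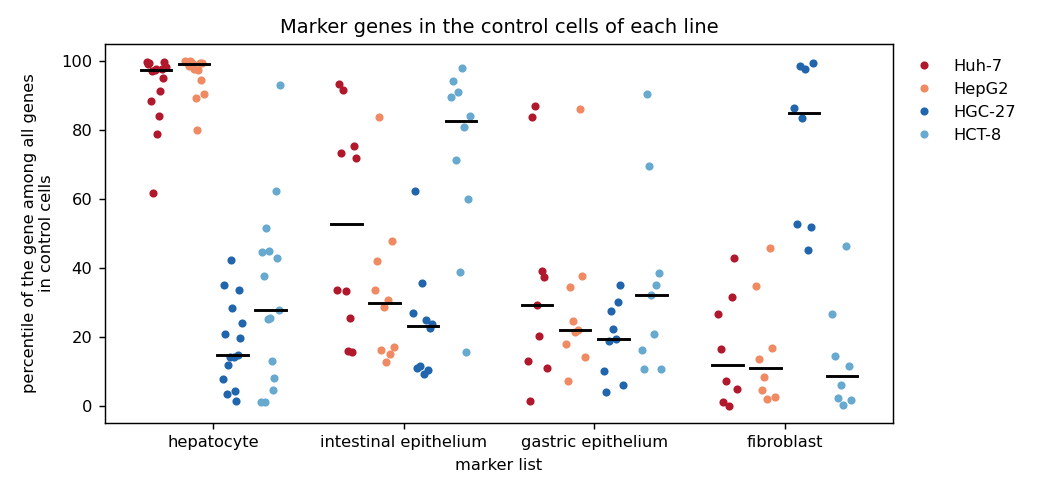
Percentile of each marker gene among all genes in control cells (vertical axis, percent) for 4 marker lists, with a dot per gene and a black bar at the median of each line. The hepatocyte markers are high in Huh-7 and HepG2 cells (medians 97.4 and 99.1), the intestinal markers have medians of 52.9 in Huh-7 and 29.9 in HepG2, against 23.3 in HGC-27 and 82.6 in HCT-8, and HGC-27 cells lie low on the gastric list and high on the fibroblast list.

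Melatonin is a hormone of the pineal gland and the gut that signals at night through the G protein-coupled receptors MT1 and MT2, and at high concentration it also acts as an antioxidant. The liver clears it from blood by cytochrome P450 hydroxylation and sulfation. Hepatocytes make most plasma proteins, lipoproteins and bile acids, and cell lines made from liver tumours keep part of that programme. The questions here are which genes the liver and gut lines answered with differently, and whether the lines of a tissue did so together.

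Between the means of the 2 liver and the 2 gut lines, 5867 of 18265 genes (32.1%) differed in response, 2750 higher and 3117 lower in the liver lines. Of these, 3633 (19.9% of all genes) were kept, 1639 higher (8.97%) and 1994 lower (10.9%) in the liver lines, and 2234 were not because the responses of the tissues overlapped. Most differences were small. All 4 pairs of a liver line and a gut line differed by at least 1.5-fold in the same direction for 102 kept genes (0.558%), 37 higher and 65 lower, and by at least 2-fold for 28 genes, 6 higher and 22 lower. The median size of the difference was 0.12 on the log2 scale with a median standard error of 0.07. Just inside the threshold lay THTPA, a thiamine triphosphatase, with a difference of 0.25, and just outside it C12orf50 with -0.22.

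The lines of the same tissue also differed from each other: the responses of Huh-7 and HepG2 differed for 5938 genes (32.5%) and those of HGC-27 and HCT-8 for 4349 genes (23.8%), with median sizes of 0.18 and 0.14. Over 18265 genes the responses of Huh-7 and HepG2 correlated at 0.605 (Pearson), those of HGC-27 and HCT-8 at 0.542, and the pairs across tissues at 0.492 to 0.592. Genes share arrays and normalization, so these are descriptions. Averaged over a tissue, 9572 genes (52.4%) changed in the liver lines and 8681 (47.5%) in the gut lines. By direction, 25.6% of all genes rose and 26.8% fell in the liver lines, and 23.7% rose and 23.8% fell in the gut lines, which is the background for the counts of rising and falling list members given later. For 1686 of the kept genes, neither of the differences within a tissue passed the test.

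The kept genes fall into 5 classes by the average response of each tissue. The mean response passed the test in both tissues and in the same direction for 1353 genes, of which 1201 responded more in the liver lines and 152 more in the gut lines. It passed in the liver lines alone for 1262 genes and in the gut lines alone for 617. In 359 genes it passed in opposite directions, and in 42 it passed in neither. A fall cannot be seen where a gene gives no more than background. Of the 65 genes lower in the liver lines by at least 1.5-fold in all pairs, 20 lay below the 25th percentile in both gut lines, treated and control. Among the 12147 genes that lay below it in none of the lines, 2951 were kept and 56 passed 1.5-fold in all pairs (23 higher, 33 lower).

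**Figure D2:**
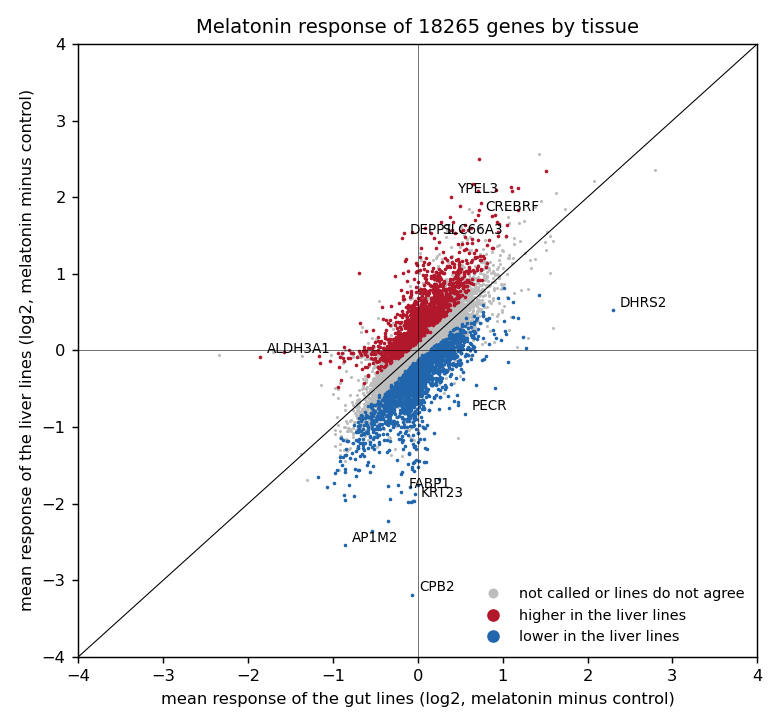
Mean response of the liver lines (vertical axis) against that of the gut lines (horizontal axis), both as log2 melatonin minus control, with a dot per gene for 18265 genes and the line of equal response. The 1639 kept genes higher in the liver lines (red) and 1994 lower (blue) lie on both sides of it. CPB2 (lowest) and ALDH3A1 (far left) changed in 1 tissue and had little signal in the other.

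The largest difference among the genes named was that of CPB2, which fell in both liver lines. CPB2 encodes carboxypeptidase B2, a plasma enzyme from hepatocytes that slows the breakdown of fibrin clots. CPB2 read 2.02, 1.84 and 1.64 in melatonin-treated Huh-7 cells, against 5.34, 4.90 and 5.03 in Huh-7 controls, and 4.73 and 5.17 in melatonin-treated HepG2 cells, against 8.16, 8.0 and 8.07 in HepG2 controls. In the gut lines it was near the bottom of the arrays, with 0.75, 1.09 and 0.83 in melatonin-treated HGC-27 cells, against 1.26, 1.01 and 0.83 in HGC-27 controls, and 0.65, 0.65 and 0.80 in melatonin-treated HCT-8 cells, against 0.56, 0.75 and 0.80 in HCT-8 controls. Treated and control arrays did not overlap in either liver line and overlapped in both gut lines. The liver response was 3.12 lower on the log2 scale than the gut response (standard error 0.14, adjusted p = 8.62e-13, limma), which is 8.70-fold. CPB2 lay below the 25th percentile in both gut lines.

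FABP1, the fatty acid-binding protein of hepatocytes and enterocytes, fell in both liver lines by a similar amount. It read 8.69, 8.63 and 8.60 in melatonin-treated Huh-7 cells, against 10.59, 10.57 and 10.50 in Huh-7 controls, and 6.60 and 6.72 in melatonin-treated HepG2 cells, against 8.42, 8.37 and 8.50 in HepG2 controls. It read 1.11, 1.31 and 1.15 in melatonin-treated HGC-27 cells, against 1.21, 1.32 and 1.21 in HGC-27 controls, and 0.85, 0.93 and 0.86 in melatonin-treated HCT-8 cells, against 1.23, 1.12 and 1.26 in HCT-8 controls. The treated arrays lay below the controls in the liver lines and HCT-8, and the groups overlapped in HGC-27. FABP1 was at percentile 14.7 in HGC-27 controls, where a fall may not show. In HCT-8 it was at percentile 31.0 in controls and 19.2 in treated cells, where a larger fall may not show either. The responses were -1.92 in Huh-7, -1.77 in HepG2, -0.06 in HGC-27 and -0.33 in HCT-8 cells, a difference of -1.65 (standard error 0.06, adjusted p = 6.27e-14). Both of its probe sets passed the test in this direction.

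Blood clotting and complement genes moved the same way in number. Of 36 measured genes of this list, 14 were kept as lower in the liver lines (38.9%) and 1 as higher (2.78%), against 10.9% and 8.97% of all genes. Its median difference was -0.08, against 0.00 over all genes, and 15 of its genes lay below the 25th percentile in both gut lines. FGA, the alpha chain of fibrinogen, responded by -0.84 in Huh-7, -1.49 in HepG2, -0.11 in HGC-27 and -0.04 in HCT-8 cells (difference -1.09, standard error 0.05, adjusted p = 3.99e-12). MBL2, the mannose-binding lectin that starts the lectin pathway of complement, responded by -1.18 in Huh-7, -1.75 in HepG2, -0.06 in HGC-27 and -0.06 in HCT-8 cells (difference -1.41, standard error 0.08, adjusted p = 3.82e-11). Of its 2 probe sets, 1 passed the test (-2.61) and the other did not (-0.21). SERPIND1, the thrombin inhibitor heparin cofactor II, responded by -1.68 in Huh-7, -0.84 in HepG2, 0.02 in HGC-27 and -0.11 in HCT-8 cells (difference -1.21, standard error 0.08, adjusted p = 5.14e-10). The falls were in the liver lines for all 3, and FGA and MBL2 lay below the 25th percentile in both gut lines. SERPIND1 was at percentile 27.0 in HGC-27 and 39.3 in HCT-8 controls, where a fall may also not show.

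Other secreted plasma proteins gave 12 lower (40%) and 1 higher (3.33%) kept genes among 30, against 10.9% and 8.97% of all genes. Their median difference was -0.12. CP, the copper carrier ceruloplasmin, had responses of -0.87 in Huh-7, -1.28 in HepG2, -0.02 in HGC-27 and 0.04 in HCT-8 cells (difference -1.08, standard error 0.07, adjusted p = 2.12e-10). SAA4, a constitutive serum amyloid A of lipoproteins, fell far more in Huh-7 (-3.26) than in HepG2 (-0.70), and its responses were -0.09 in HGC-27 and -0.14 in HCT-8 cells. AMBP, the precursor of alpha-1-microglobulin, was the member kept as higher, by 0.22 (standard error 0.06, adjusted p = 0.00381). It did not pass the test in the liver lines, and its difference was 0.10 without HCT-8 and 0.16 without HepG2 cells, past the test in neither case. ALB, serum albumin and the most typical hepatocyte product, did not pass the test: its responses were 0.09 in Huh-7, 0.02 in HepG2, 0.08 in HGC-27 and 0.06 in HCT-8 cells, a difference of -0.01 (standard error 0.06, adjusted p = 0.912). ALB was at percentile 99.9 in Huh-7 and 100 in HepG2 controls, the top of the range of the arrays, and whether that hid a change was not tested. Of 30 plasma protein genes, 13 lay below the 25th percentile in both gut lines, CP and SAA4 among them, where a fall may not show.

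Lipoprotein genes had 9 lower and 2 higher kept genes among 16, with a median difference of -0.33. APOC3, an apolipoprotein that holds back lipoprotein lipase, had responses of -1.32 in Huh-7, -1.38 in HepG2, 0.04 in HGC-27 and -0.25 in HCT-8 cells (difference -1.25, standard error 0.07, adjusted p = 4.23e-11). MTTP, which loads lipid onto apolipoprotein B, fell by 0.58 in Huh-7 and 1.08 in HepG2. Its responses were -0.14 in HGC-27 and -0.08 in HCT-8 (difference -0.72, standard error 0.06, adjusted p = 2.52e-08). MTTP was at percentile 7.81 in HGC-27 and 8.27 in HCT-8 controls, where a fall may not show. Low signal in both gut lines was found for 5 of the 16 genes, MTTP among them. APOA2, the second protein of high-density lipoprotein, went the other way with 0.34 in Huh-7, 0.16 in HepG2, -0.04 in HGC-27 and -0.03 in HCT-8 cells (difference 0.29, standard error 0.07, adjusted p = 0.00417), which did not pass the test without Huh-7 cells (0.20). SOAT2 and FADS2 were among the 15 kept genes with the most negative smallest pair difference. SOAT2, which esterifies cholesterol in hepatocytes and enterocytes, responded by -1.23 in Huh-7, -1.63 in HepG2, -0.07 in HGC-27 and 0.02 in HCT-8 cells. It was at percentile 31.8 in HGC-27 and 23.2 in HCT-8 controls, where a fall may not show. FADS2, the delta-6 desaturase of polyunsaturated fatty acids, responded by -1.76 in Huh-7, -1.15 in HepG2, 0.19 in HGC-27 and -0.01 in HCT-8 cells. Their differences were -1.40 and -1.55, with FADS2 also higher in HGC-27 by a small amount that passed the test.

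Fatty acid genes moved in both directions. Among 26 genes of synthesis and storage, 7 were lower (26.9%) and 2 higher (7.69%), against 10.9% and 8.97% of all genes. Among 26 of oxidation and ketone bodies, 6 were lower (23.1%) and 3 higher (11.5%). ACOX2, the peroxisomal oxidase of bile acid intermediates, responded by -2.16 in Huh-7, -1.07 in HepG2, 0.01 in HGC-27 and -0.40 in HCT-8 cells (difference -1.42, standard error 0.09, adjusted p = 1.76e-10). CPT1A, the carnitine transferase that admits long-chain fatty acids to mitochondria, rose by 1.65 in Huh-7 and 0.75 in HepG2, against -0.08 in HGC-27 and 0.26 in HCT-8 (difference 1.11, standard error 0.06, adjusted p = 3.82e-11). SCD, the stearoyl-CoA desaturase, was kept as higher in the liver lines by 0.43 (standard error 0.07, adjusted p = 7.58e-05) and fell by 0.69 in HGC-27 cells, and without those the difference of 0.15 did not pass the test.

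Drug metabolism enzymes of phase II, which attach sulfate, glucuronide or glutathione, had 9 lower (31.0%) and 2 higher (6.90%) kept genes among 29. Phase I had 4 lower (12.9%) and 3 higher (9.68%) among 31, near the shares of all genes (10.9% and 8.97%). Below the 25th percentile in both gut lines lay 11 genes of phase I and 15 of phase II. The 15 included SULT1E1, SULT2A1, GSTA2 and UGT2B10, for which a fall in the gut lines may not show. SULT1E1, the estrogen sulfotransferase, responded by -2.23 in Huh-7, -0.91 in HepG2, -0.10 in HGC-27 and 0.01 in HCT-8 cells (difference -1.53, standard error 0.08, adjusted p = 2.06e-11), and SULT2A1, the sulfotransferase of steroids and bile acids, by -0.78 in Huh-7, -1.71 in HepG2, 0.00 in HGC-27 and -0.06 in HCT-8 cells (difference -1.22, standard error 0.06, adjusted p = 6.01e-12). GSTA2, a glutathione transferase, fell by 0.61 in Huh-7 and 2.30 in HepG2, and 0.06 in HGC-27 and 0.10 in HCT-8 did not pass the test. NAT8, an N-acetyltransferase of liver and kidney, responded by -2.38 in Huh-7, -1.36 in HepG2, 0.04 in HGC-27 and -0.11 in HCT-8 cells (difference -1.84, standard error 0.13, adjusted p = 1.52e-09). It was at percentile 30.3 in HGC-27 and 28.9 in HCT-8 controls, where a fall may not show. For ADH4 and UGT2B10 the agreement of the liver lines was formal, as the differences without HepG2 cells were -0.04 and -0.10 and did not pass the test. ADH4, a liver alcohol dehydrogenase, fell by 3.43 in HepG2 but was at percentile 1.34 in Huh-7 controls, where its response was -0.13. UGT2B10, a glucuronosyltransferase, fell by 2.88 in HepG2, with a response of -0.16 at percentile 8.28 in Huh-7.

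Of 20 genes of bile acid synthesis and transport, 4 were kept as lower (20%) and 2, the hydroxylases CYP7B1 and CYP27A1, as higher, and 11 lay below the 25th percentile in both gut lines. Of 20 genes of gluconeogenesis and glycogen, 3 were lower (15%, against 10.9% of all genes) and 0 higher. SLC2A2, the glucose transporter GLUT2, responded by -0.61 in Huh-7, -1.89 in HepG2, 0.02 in HGC-27 and -0.11 in HCT-8 cells (difference -1.2, standard error 0.06, adjusted p = 1.94e-11). SLC51B, a subunit of the bile acid exporter OST, responded by -2.29 in Huh-7, -0.68 in HepG2, -0.11 in HGC-27 and -0.11 in HCT-8 cells (difference -1.37, standard error 0.10, adjusted p = 1.44e-09). In the list of urea cycle and amino acid breakdown, 8 genes were lower (29.6%) and 4 higher (14.8%) of 27, against 10.9% and 8.97% of all genes. MAT1A, the liver enzyme that makes S-adenosylmethionine, fell by 0.54 in Huh-7 and 1.45 in HepG2 (difference -0.79, standard error 0.11, adjusted p = 8.00e-06). ASS1, the argininosuccinate synthase of the urea cycle, had responses of -0.06 in Huh-7, -0.36 in HepG2, 0.37 in HGC-27 and 0.52 in HCT-8 cells (difference -0.66, standard error 0.04, adjusted p = 2.60e-10). The transcription factors of hepatocytes and endoderm moved less, with a median difference of -0.05. Of 20, 1 was kept as lower (5%) and 2 as higher (10%), against 10.9% and 8.97% of all genes.

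**Figure D3:**
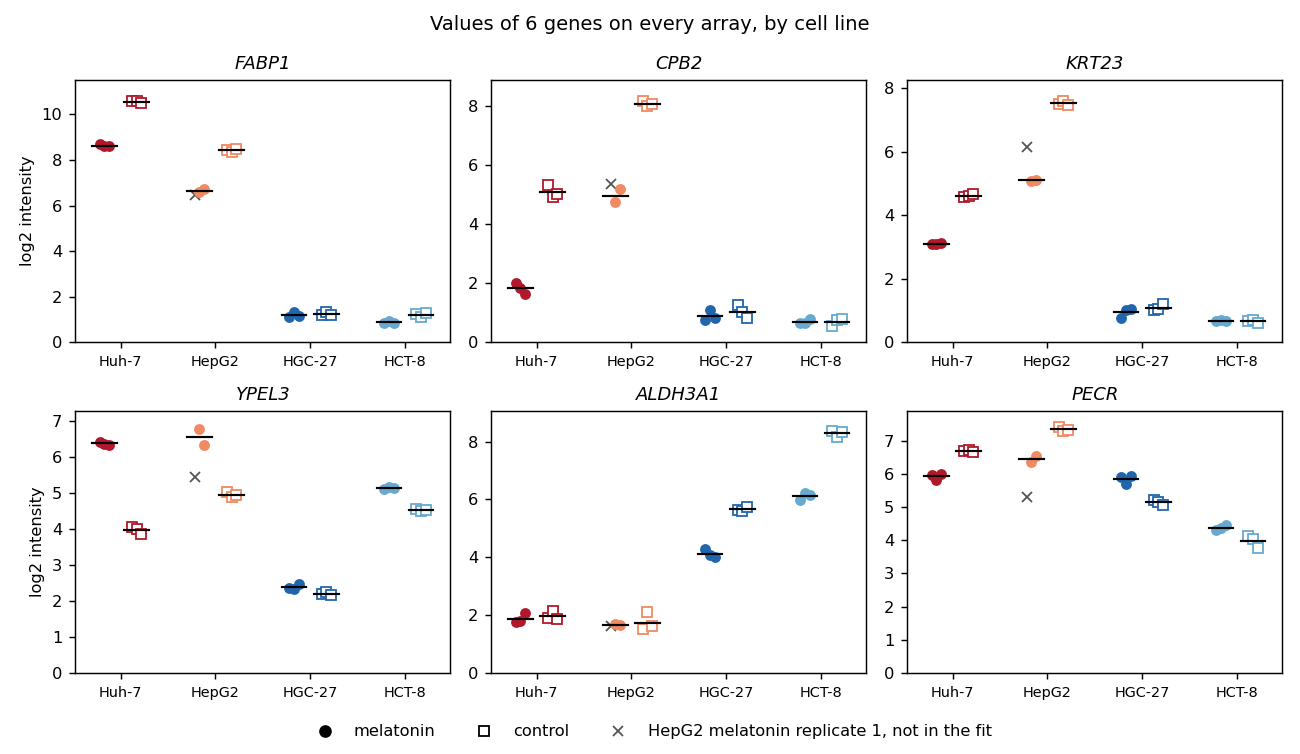
Log2 intensity (vertical axis) of 6 genes on every array, with melatonin-treated cells as filled circles, controls as open squares, group means as black bars and HepG2 melatonin replicate 1, which was not in the fit, as a cross. FABP1, CPB2 and KRT23 separate treated from control arrays in Huh-7 and HepG2, ALDH3A1 in HGC-27 and HCT-8, YPEL3 in all 4 lines, and PECR in opposite directions.

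The promoters of FABP1 and FGA are shown because both genes fell with melatonin in Huh-7 and HepG2 and both hold the letters GTTAAT, 1 side of the palindrome bound by the hepatocyte factor HNF1. Each run is 300 bases of RefSeq on GRCh38.p14, from 250 before to 50 after the start, 5′ to 3′ on the gene's strand, with GTTAAT or its complement ATTAAC in capitals.

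FABP1, chr2:88128013-88128312, minus strand: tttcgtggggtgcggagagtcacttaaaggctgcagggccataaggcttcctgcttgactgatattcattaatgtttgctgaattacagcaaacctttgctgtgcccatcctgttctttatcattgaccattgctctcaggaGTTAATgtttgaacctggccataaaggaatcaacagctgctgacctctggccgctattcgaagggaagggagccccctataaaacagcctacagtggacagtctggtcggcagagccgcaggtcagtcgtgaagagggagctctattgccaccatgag

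FGA, chr4:154590693-154590992, minus strand: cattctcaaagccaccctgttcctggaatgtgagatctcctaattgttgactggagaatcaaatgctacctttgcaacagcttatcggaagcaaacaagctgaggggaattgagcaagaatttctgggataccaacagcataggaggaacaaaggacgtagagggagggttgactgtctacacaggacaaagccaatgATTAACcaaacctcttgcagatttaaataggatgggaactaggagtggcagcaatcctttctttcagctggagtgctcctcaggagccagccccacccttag

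Over the first listed promoter of 27305 genes, 6.89% held GTTAAT on either strand, and of the promoters of tested genes 5.11%. Of 52 genes lower in the liver lines by at least 1.5-fold in all pairs and with a promoter given, 8 held it (15.4%), and of 29 such higher genes 0 did. The 8 were FABP1, FGA, GSTA2, LEAP2, MYLK, PALMD, SPP1 and SULT1E1. Among all 1639 kept lower genes with a promoter the share was 4.39%, so the letters were not more frequent there than over the tested genes. A run of 6 letters is short, and a match is not a bound site.

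Of 27 keratin and junction genes, 12 fell and 4 rose in the liver lines, and 4 fell and 11 rose in the gut lines. KRT23, a type I keratin, read 3.09, 3.09 and 3.13 in melatonin-treated Huh-7 cells, against 4.57, 4.60 and 4.66 in Huh-7 controls, and 5.09 and 5.11 in melatonin-treated HepG2 cells, against 7.49, 7.59 and 7.47 in HepG2 controls. In the gut lines it lay near the bottom of the arrays, with 0.78, 1.03 and 1.03 in melatonin-treated HGC-27 cells, against 1.02, 1.06 and 1.19 in HGC-27 controls, and 0.67, 0.70 and 0.68 in melatonin-treated HCT-8 cells, against 0.67, 0.70 and 0.60 in HCT-8 controls. The arrays separated in both liver lines and overlapped in both gut lines, and the difference was -1.91 (standard error 0.06, adjusted p = 9.93e-15). KRT18, the keratin of simple epithelia, was abundant in 3 of the lines and responded by -0.98 in Huh-7, -0.79 in HepG2, -0.11 in HGC-27 and 0.04 in HCT-8 cells (difference -0.85, standard error 0.04, adjusted p = 8.35e-12). KRT18 was at percentile 100 in HCT-8 controls, the top of the range, and below the 25th in HGC-27. Of the list, 9 were kept as lower (33.3%) and 3 as higher (11.1%), against 10.9% and 8.97% of all genes, with a median difference of -0.27.

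Among the genes with the largest smallest pair difference were several that are not liver products. CCR6, the receptor of the chemokine CCL20, responded by -2.31 in Huh-7, -1.62 in HepG2, -0.09 in HGC-27 and 0.00 in HCT-8 cells (difference -1.92, standard error 0.09, adjusted p = 3.99e-12). SCGN, secretagogin, a calcium-binding protein of endocrine cells, responded by -1.56 in Huh-7, -2.40 in HepG2, -0.01 in HGC-27 and -0.14 in HCT-8 cells (difference -1.90, standard error 0.09, adjusted p = 3.99e-12). MLKL, the pore-forming executor of necroptosis, fell in both liver lines and less in HCT-8, with -2.0 in Huh-7, -1.88 in HepG2, -0.02 in HGC-27 and -0.63 in HCT-8 cells (difference -1.62, standard error 0.08, adjusted p = 3.99e-12). AP1M2, the epithelial subunit of a clathrin adaptor, fell in all 4 lines, by 2.49 in Huh-7, 2.60 in HepG2, 1.29 in HGC-27 and 0.43 in HCT-8. CRYBG1 responded by -1.76 in Huh-7, -1.34 in HepG2, -0.06 in HGC-27 and -0.07 in HCT-8 cells and KANK4, a scaffold protein of the cell cortex, by -1.39 in Huh-7, -1.18 in HepG2, -0.06 in HGC-27 and 0.01 in HCT-8 cells. CCR6, CRYBG1 and KANK4 lay below the 25th percentile in both gut lines, and MLKL and CXCL8 in HGC-27, where a fall cannot be seen. SCGN was at percentile 31.5 in HGC-27 and 31.1 in HCT-8 controls, where a fall may not show either. MYLK, the myosin light chain kinase, had responses of -1.19 in Huh-7, -2.16 in HepG2, 0.34 in HGC-27 and 0.15 in HCT-8 cells (difference -1.92, standard error 0.08, adjusted p = 7.10e-13). CXCL8, the neutrophil chemokine interleukin-8, fell by 0.89 in Huh-7 and 1.27 in HepG2, against 0.04 in HGC-27 and -0.04 in HCT-8. In the list of NF-kB and chemokine genes as a whole, 4 were lower (15.4%) and 2 higher (7.69%) of 26, against 10.9% and 8.97% of all genes.

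**Figure D4:**
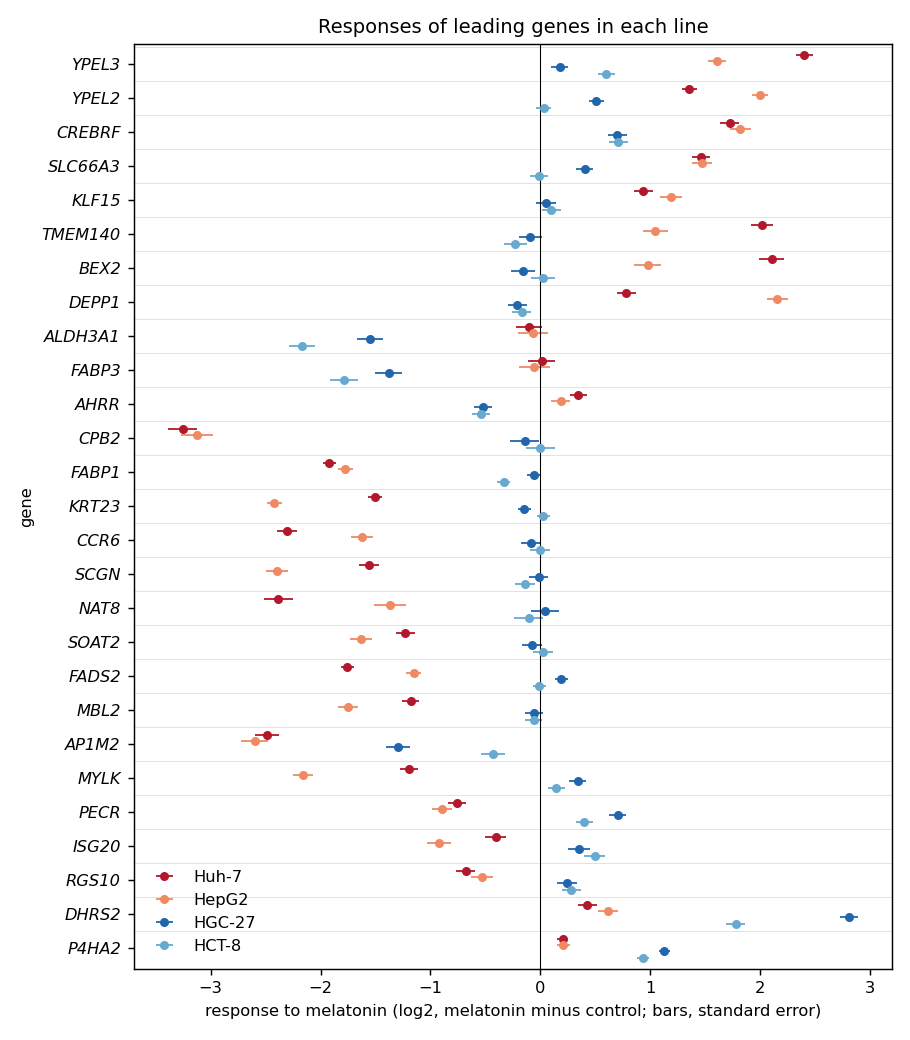
Response of 27 named genes in each line (horizontal axis, log2 melatonin minus control), with a dot per line and bars of 1 standard error from the fit. Genes at the top rose in Huh-7 and HepG2 cells, ALDH3A1 and FABP3 fell in HGC-27 and HCT-8 cells alone, those from CPB2 to AP1M2 fell most in the liver lines, and MYLK to P4HA2 lie further right in the gut lines.

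Most genes of cell division fell in the average of each tissue, and many fell further in the liver lines. Of 37 mitosis and spindle checkpoint genes, 36 fell on average in the liver lines and 35 in the gut lines. The tissue difference was kept as lower in the liver lines for 26 (70.3%, against 10.9% of all genes) and as higher for 0. The median response was -0.76 in the liver lines and -0.54 in the gut lines, and the median difference was -0.33.

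CENPA, the histone H3 variant of centromeres, read 5.43, 5.54 and 5.43 in melatonin-treated Huh-7 cells, against 6.90, 6.76 and 6.77 in Huh-7 controls, and 6.20 and 6.25 in melatonin-treated HepG2 cells, against 7.01, 7.15 and 7.02 in HepG2 controls. It read 6.86, 6.79 and 6.86 in melatonin-treated HGC-27 cells, against 7.19, 7.16 and 7.12 in HGC-27 controls, and 6.36, 6.39 and 6.42 in melatonin-treated HCT-8 cells, against 6.57, 6.51 and 6.51 in HCT-8 controls. Treated arrays lay below controls in all 4 lines, with the wider gap in the liver lines (difference -0.86, standard error 0.05, adjusted p = 1.09e-10). UBE2C, the ubiquitin-conjugating enzyme of the anaphase-promoting complex, responded by -1.27 in Huh-7, -1.25 in HepG2, -0.48 in HGC-27 and -0.60 in HCT-8 cells (difference -0.73, standard error 0.05, adjusted p = 1.44e-09). CCNA2, the cyclin of S phase and mitotic entry, responded by -1.55 in Huh-7, -1.21 in HepG2, -0.66 in HGC-27 and -0.61 in HCT-8 cells (difference -0.74, standard error 0.06, adjusted p = 1.54e-08). AURKB, the kinase that corrects chromosome attachment, responded by -1.30 in Huh-7, -1.03 in HepG2, -0.35 in HGC-27 and -0.39 in HCT-8 cells (difference -0.80, standard error 0.08, adjusted p = 2.00e-07). The responses within a tissue were close for UBE2C, where neither within-tissue difference passed the test. The proliferation marker MKI67 responded by -1.08 in Huh-7, -1.08 in HepG2, -0.72 in HGC-27 and -0.49 in HCT-8 cells (difference -0.48, standard error 0.11, adjusted p = 0.00237). Of its 6 probe sets, 4 passed the test and 2 did not.

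Of 38 replication genes, 36 fell in the liver lines and 34 in the gut lines, with a median difference of -0.26. The difference was kept as lower in the liver lines for 18 (47.4%, against 10.9% of all genes) and as higher for 0. This count rested on HGC-27, the gut line in which they fell least: it was 32 without HCT-8 cells and 11 without HGC-27 cells. With 1 gut line left, agreement is easier for all genes. CDC45, a subunit of the replicative helicase, responded by -1.73 in Huh-7, -1.39 in HepG2, -0.33 in HGC-27 and -1.06 in HCT-8 cells (difference -0.87, standard error 0.10, adjusted p = 4.20e-07), and GINS2 of the same helicase by -1.87 in Huh-7, -1.41 in HepG2, -0.42 in HGC-27 and -1.04 in HCT-8 cells (difference -0.91, standard error 0.10, adjusted p = 6.11e-07). CDC6, which loads that helicase onto origins, fell by 0.92 in Huh-7, 0.83 in HepG2 and 0.50 in HCT-8 but rose by 0.40 in HGC-27 cells. Ribosome biogenesis genes also fell in both tissues, 35 of 35 in the liver lines and 33 in the gut lines. Only 5 were kept as lower (14.3%, against 10.9% of all genes) and 1 as higher, since 18 differed between tissues with a line out of place.

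Genes that rose more in the liver lines included regulators of growth arrest and nutrient stress. YPEL3, a small zinc-binding protein that slows growth, read 6.42, 6.36 and 6.33 in melatonin-treated Huh-7 cells, against 4.05, 3.99 and 3.86 in Huh-7 controls, and 6.77 and 6.32 in melatonin-treated HepG2 cells, against 5.01, 4.87 and 4.93 in HepG2 controls. It read 2.36, 2.32 and 2.46 in melatonin-treated HGC-27 cells, against 2.21, 2.24 and 2.17 in HGC-27 controls, and 5.10, 5.15 and 5.13 in melatonin-treated HCT-8 cells, against 4.56, 4.49 and 4.52 in HCT-8 controls. Treated arrays lay above the controls in all lines, by the largest step in Huh-7, and the difference was 1.62 (standard error 0.08, adjusted p = 4.73e-12). YPEL2 of the same family responded by 1.36 in Huh-7, 2.0 in HepG2, 0.51 in HGC-27 and 0.03 in HCT-8 cells (difference 1.41, standard error 0.07, adjusted p = 3.99e-12).

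CREBRF, a regulator of energy balance that drives the degradation of a CREB3 factor, was the most even of these. It read 4.34, 4.29 and 4.24 in melatonin-treated Huh-7 cells, against 2.57, 2.46 and 2.65 in Huh-7 controls, and 4.04 and 3.5 in melatonin-treated HepG2 cells, against 1.98, 1.93 and 1.95 in HepG2 controls. It read 2.08, 1.93 and 2.02 in melatonin-treated HGC-27 cells, against 1.30, 1.33 and 1.30 in HGC-27 controls, and 2.65, 2.73 and 2.68 in melatonin-treated HCT-8 cells, against 1.97, 2.02 and 1.92 in HCT-8 controls. The arrays separated in every line, and the responses were 1.73 in Huh-7, 1.82 in HepG2, 0.70 in HGC-27 and 0.71 in HCT-8 cells (difference 1.07, standard error 0.09, adjusted p = 8.24e-09). KLF15, a factor of amino acid breakdown and gluconeogenesis, responded by 0.94 in Huh-7, 1.2 in HepG2, 0.05 in HGC-27 and 0.10 in HCT-8 cells (difference 0.99, standard error 0.09, adjusted p = 4.53e-08), so it rose in the liver lines alone. SLC66A3, a transporter of the PQ-loop family, responded by 1.46 in Huh-7, 1.47 in HepG2, 0.40 in HGC-27 and -0.01 in HCT-8 cells (difference 1.27, standard error 0.08, adjusted p = 3.51e-10). TMEM140 rose by 2.02 in Huh-7 and 1.05 in HepG2, with -0.09 in HGC-27 and -0.23 in HCT-8 (difference 1.69, standard error 0.11, adjusted p = 1.56e-10). BEX2 rose by 2.11 and 0.98 in these liver lines, and it lay below the 25th percentile in both gut lines.

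FoxO factors switch on genes of arrest, repair and fasting when insulin signaling is low. Of 28 targets, 24 rose in the liver lines and 18 in the gut lines, 8 were kept as higher (28.6%, against 8.97% of all genes) and 2 as lower, with a median difference of 0.25. Without Huh-7 cells, where 1 liver line is left and agreement is easier for all genes, 14 were higher. PINK1, the kinase that marks damaged mitochondria, responded by 2.14 in Huh-7, 1.38 in HepG2, 1.05 in HGC-27 and 0.69 in HCT-8 cells (difference 0.89, standard error 0.07, adjusted p = 2.96e-09). CCNG2, a cyclin of cell cycle arrest, responded by 1.29 in Huh-7, 0.86 in HepG2, 0.16 in HGC-27 and 0.81 in HCT-8 cells (difference 0.59, standard error 0.07, adjusted p = 2.00e-06), and 2 of its 5 probe sets passed the test. Without HGC-27 cells the CCNG2 difference of 0.26 did not. IGFBP1, the insulin-repressed binding protein of the liver, rose by 2.07 in HepG2 alone and was at percentile 2.32 in Huh-7 controls, and its difference without HepG2 cells was 0.19, which did not pass the test.

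DEPP1, a FoxO-induced regulator of autophagy and peroxide handling, read 4.21, 4.12 and 4.21 in melatonin-treated Huh-7 cells, against 3.31, 3.51 and 3.38 in Huh-7 controls, and 7.62 and 7.09 in melatonin-treated HepG2 cells, against 5.18, 5.16 and 5.25 in HepG2 controls. It read 2.17, 2.22 and 2.15 in melatonin-treated HGC-27 cells, against 2.35, 2.36 and 2.45 in HGC-27 controls, and 1.61, 1.65 and 1.54 in melatonin-treated HCT-8 cells, against 1.72, 1.81 and 1.78 in HCT-8 controls. Treated arrays were above controls in the liver lines and below them in the gut lines, where the fall did not pass the test in either line on its own but did on average (difference 1.66, standard error 0.09, adjusted p = 1.70e-11). Its promoter and that of YPEL3 are shown because both hold GTAAACA, a FoxO binding sequence, in capitals, in the same window and on the same build as above.

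YPEL3, chr16:30096164-30096463, minus strand: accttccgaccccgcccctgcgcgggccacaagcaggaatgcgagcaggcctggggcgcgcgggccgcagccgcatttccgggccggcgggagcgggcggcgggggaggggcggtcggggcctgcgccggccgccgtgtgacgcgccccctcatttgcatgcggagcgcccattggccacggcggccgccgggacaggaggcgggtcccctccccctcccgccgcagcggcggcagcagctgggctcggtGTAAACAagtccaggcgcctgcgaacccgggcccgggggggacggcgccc

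DEPP1, chr10:44978760-44979059, minus strand: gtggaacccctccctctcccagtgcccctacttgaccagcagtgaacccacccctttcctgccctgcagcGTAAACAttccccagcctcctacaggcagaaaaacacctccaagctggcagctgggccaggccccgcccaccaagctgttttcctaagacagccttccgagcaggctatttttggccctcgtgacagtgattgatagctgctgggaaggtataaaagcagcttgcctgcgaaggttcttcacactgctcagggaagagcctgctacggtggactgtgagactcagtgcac

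GTAAACA or its complement TGTTTAC was in 3.41% of all promoters and 2.49% of those of tested genes. It was in 4 of 29 genes with a promoter given that were higher in the liver lines by at least 1.5-fold in all pairs (13.8%), namely DEPP1, TCP11L2, TMEM140 and YPEL3, and in 1 of 52 such lower ones. Over the 1331 kept higher genes with a promoter it was in 3.38%. These letters were chosen after values were seen, 4 genes are few, and a match is not a bound site. In YPEL3 the match lies after the start and not before it.

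Of 34 lysosome and autophagy genes, 23 rose in the liver lines and 23 in the gut lines, against 25.6% and 23.7% of all genes. Of them 8 were kept as higher (23.5%) and 2 as lower (5.88%), against 8.97% and 10.9% of all genes. Without HepG2 cells 14 were higher, with 1 liver line left and agreement easier for all genes. CTSL, the lysosomal protease cathepsin L, responded by 2.26 in Huh-7, 0.79 in HepG2, 0.49 in HGC-27 and 0.38 in HCT-8 cells (difference 1.09, standard error 0.06, adjusted p = 4.81e-11). GABARAPL1, an ATG8 protein of autophagosomes, was nearly equal within each tissue, with 0.93 in Huh-7, 0.99 in HepG2, 0.30 in HGC-27 and 0.23 in HCT-8 cells (difference 0.70, standard error 0.06, adjusted p = 1.02e-08). Among p53 targets, TP53INP1, which promotes autophagy and death under stress, responded by 2.5 in Huh-7, 0.97 in HepG2, 0.75 in HGC-27 and 0.02 in HCT-8 cells (difference 1.35, standard error 0.07, adjusted p = 2.15e-11). That list gave 5 higher (20.8%) and 2 lower (8.33%) of 24, against 8.97% and 10.9% of all genes.

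Of 10 genes of the aryl hydrocarbon receptor and its targets, 4 rose and 4 fell in the liver lines, and 3 rose and 5 fell in the gut lines. This receptor binds planar aromatic ligands and induces enzymes that break them down. ALDH3A1, an aldehyde dehydrogenase and one of its targets, read 1.77, 1.81 and 2.07 in melatonin-treated Huh-7 cells, against 1.91, 2.16 and 1.88 in Huh-7 controls, and 1.68 and 1.68 in melatonin-treated HepG2 cells, against 1.51, 2.10 and 1.63 in HepG2 controls. It read 4.28, 4.08 and 4.0 in melatonin-treated HGC-27 cells, against 5.65, 5.61 and 5.74 in HGC-27 controls, and 5.97, 6.22 and 6.15 in melatonin-treated HCT-8 cells, against 8.38, 8.16 and 8.32 in HCT-8 controls. The arrays overlapped in both liver lines and separated in both gut lines, a difference of 1.77 or 3.42-fold (standard error 0.12, adjusted p = 6.97e-10). In controls ALDH3A1 was at percentile 30.7 in Huh-7 and 35.3 in HepG2, against 80.3 in HGC-27 and 98.3 in HCT-8. Whether a fall could show at its level in the liver lines was not tested.

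AHRR, the repressor of that receptor and itself a target, read 3.55, 3.62 and 3.49 in melatonin-treated Huh-7 cells, against 3.23, 3.10 and 3.28 in Huh-7 controls, and 1.61 and 1.86 in melatonin-treated HepG2 cells, against 1.63, 1.58 and 1.44 in HepG2 controls. It read 3.39, 3.36 and 3.34 in melatonin-treated HGC-27 cells, against 3.84, 3.96 and 3.85 in HGC-27 controls, and 1.89, 1.87 and 1.79 in melatonin-treated HCT-8 cells, against 2.57, 2.40 and 2.19 in HCT-8 controls. It fell in both gut lines and rose in Huh-7, while the HepG2 arrays overlapped (difference 0.79, standard error 0.08, adjusted p = 2.15e-07). Of its 2 probe sets, 1 passed the test (1.41) and the other did not (0.18). CYP1A1, the cytochrome most induced by the receptor and one that hydroxylates melatonin, fell in all lines and most in Huh-7, with -2.36 in Huh-7, -0.81 in HepG2, -0.76 in HGC-27 and -0.37 in HCT-8 cells (difference -1.03, standard error 0.09, adjusted p = 2.64e-08), and without Huh-7 cells its difference of -0.25 did not pass the test. The list of 10 genes thus had 2 higher (20%) and 2 lower (20%), without 1 direction, against 8.97% and 10.9% of all genes. The first listed promoter of AHRR is shown because it holds GCGTG, the core letters of the xenobiotic response element, in capitals.

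AHRR, chr5:321464-321763, plus strand: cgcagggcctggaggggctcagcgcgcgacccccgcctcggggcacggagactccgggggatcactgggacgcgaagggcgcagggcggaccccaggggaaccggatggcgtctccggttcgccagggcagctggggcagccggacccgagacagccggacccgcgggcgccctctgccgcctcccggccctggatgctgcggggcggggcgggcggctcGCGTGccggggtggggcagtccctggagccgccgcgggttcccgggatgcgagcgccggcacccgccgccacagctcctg

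GCGTG or CACGC was in 36.3% of all promoters and 44.6% of those of tested genes, so its presence in 1 promoter sets AHRR apart from few others.

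FABP3, the fatty acid-binding protein of heart, fell by 1.38 in HGC-27 and 1.79 in HCT-8, against responses of 0.01 in Huh-7 and -0.05 in HepG2 (difference 1.56, standard error 0.13, adjusted p = 7.29e-09). It lay below the 25th percentile in Huh-7, where a fall cannot be seen, and at percentile 26.8 in HepG2 controls. Wnt feedback and stem cell genes had 6 higher (31.6%, against 8.97% of all genes) and 0 lower of 19, with a median difference of 0.13. APCDD1, a membrane inhibitor of Wnt, fell by 1.31 in HGC-27 and 0.58 in HCT-8, against responses of -0.13 in Huh-7 and 0.06 in HepG2 (difference 0.91, standard error 0.08, adjusted p = 1.36e-08). It lay below the 25th percentile in Huh-7, where a fall may not show. ZNRF3, a ligase that removes Wnt receptors, and SOX9, a progenitor factor, differed by 0.29 and 0.37. Without Huh-7 cells neither of these passed the test (0.29 and 0.25), nor did ZNRF3 without HGC-27 cells (0.09). REG4, a secreted lectin of gut epithelium, fell by 1.47 in HCT-8 but lay below the 25th percentile in the other 3 lines. Its response was -0.10 in HGC-27, so its place among kept genes rests on 1 line, and without HCT-8 cells the difference was 0.06. KRT20, a keratin of gut epithelium, fell by 0.97 in HCT-8, with -0.29 in HGC-27 (difference 0.62, standard error 0.12, adjusted p = 4.46e-04), and without HCT-8 cells its difference of 0.28 did not pass the test. The intestinal and gastric epithelial list gave 3 higher (10.3%) and 4 lower (13.8%) of 29, near the shares of all genes (8.97% and 10.9%). Of them 11 fell in the liver lines and 16 in the gut lines, against 26.8% and 23.8% of all genes.

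Genes that rose more in the gut lines included DHRS2, a mitochondrial and nuclear dehydrogenase/reductase. It read 2.05, 2.11 and 1.86 in melatonin-treated Huh-7 cells, against 1.46, 1.69 and 1.58 in Huh-7 controls, and 11.39 and 11.32 in melatonin-treated HepG2 cells, against 10.70, 10.73 and 10.79 in HepG2 controls. It read 4.37, 4.37 and 4.54 in melatonin-treated HGC-27 cells, against 1.56, 1.73 and 1.57 in HGC-27 controls, and 5.87, 6.04 and 6.03 in melatonin-treated HCT-8 cells, against 4.26, 4.01 and 4.32 in HCT-8 controls. All 4 lines rose without overlap of arrays, and the gut lines rose more (difference -1.77, standard error 0.09, adjusted p = 3.99e-12). In HepG2 controls DHRS2 was already at percentile 99.8, and whether that limited its rise was not tested. P4HA2, a collagen prolyl hydroxylase, responded by 0.20 in Huh-7, 0.21 in HepG2, 1.13 in HGC-27 and 0.94 in HCT-8 cells (difference -0.83, standard error 0.05, adjusted p = 3.69e-10), with no within-tissue difference past the test. Glycolysis and hypoxia genes, which include P4HA2, gave 10 lower (29.4%) and 3 higher (8.82%) of 34, against 10.9% and 8.97% of all genes. Another 10 of the list differed without agreement.

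Of 30 chaperone and degradation genes of the endoplasmic reticulum, 13 rose in the liver lines and 20 in the gut lines, against 25.6% and 23.7% of all genes. In the tissue difference 10 were kept as lower in the liver lines (33.3%, against 10.9% of all genes) and 0 as higher (median difference -0.14). Without Huh-7 cells 20 were lower, with 1 liver line left and agreement easier for all genes. DNAJB9, a co-chaperone of HSPA5, responded by 0.76 in Huh-7, 0.12 in HepG2, 1.17 in HGC-27 and 1.07 in HCT-8 cells (difference -0.68, standard error 0.07, adjusted p = 6.48e-08). SDF2L1, another component of chaperone complexes, fell by 0.57 in Huh-7 and 1.18 in HepG2, against 0.01 in HGC-27 and -0.11 in HCT-8 (difference -0.83, standard error 0.05, adjusted p = 3.11e-10). HSPA5, the chief chaperone of this compartment, rose in 3 lines and fell by 0.38 in HepG2, so the tissue difference of -0.35 (standard error 0.05, adjusted p = 1.20e-05) came without agreement and HSPA5 was not kept. MANF, a secreted stress factor, had the same HepG2 fall, with 0.26 in Huh-7, -0.36 in HepG2, 0.39 in HGC-27 and 0.45 in HCT-8 cells, and without HepG2 cells its difference of -0.15 did not pass the test.

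NRF2 targets and antioxidant enzymes had 11 lower (35.5%, against 10.9% of all genes) and 0 higher kept genes of 31. In this list 7 rose in the liver lines and 14 in the gut lines. Without HepG2 19 were lower, and without HCT-8 18, with 1 line left in a tissue and agreement easier for all genes. HMOX1, the heme oxygenase, had responses of -0.25 in Huh-7, -1.29 in HepG2, 0.28 in HGC-27 and 0.22 in HCT-8 cells (difference -1.02, standard error 0.07, adjusted p = 7.28e-10). It read 6.20, 6.21 and 6.16 in melatonin-treated Huh-7 cells, against 6.53, 6.36 and 6.44 in Huh-7 controls, and 4.69 and 4.49 in melatonin-treated HepG2 cells, against 5.88, 5.85 and 5.91 in HepG2 controls. It read 4.96, 4.96 and 4.91 in melatonin-treated HGC-27 cells, against 4.63, 4.59 and 4.77 in HGC-27 controls, and 2.90, 2.93 and 2.69 in melatonin-treated HCT-8 cells, against 2.70, 2.5 and 2.67 in HCT-8 controls. Treated arrays were below controls in the liver lines and above them in HGC-27, and the HCT-8 groups overlapped. NQO1, a quinone reductase, fell by 0.63 in Huh-7, 0.85 in HepG2 and 0.30 in HCT-8, against a response of 0.13 in HGC-27. OSGIN1, an oxidative stress-induced growth inhibitor, rose by 1.29 in HGC-27 and 0.67 in HCT-8, and the liver lines went in opposite directions (-0.28 in Huh-7 and 0.54 in HepG2).

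Interferon-stimulated genes had 9 lower (28.1%) and 2 higher (6.25%) of 32, against 10.9% and 8.97% of all genes. In this list 10 rose in the liver lines and 15 in the gut lines. None of the lower ones differed by 1.5-fold. IRF9, the DNA-binding part of the interferon-activated complex ISGF3, responded by 0.16 in Huh-7, 0.26 in HepG2, 0.81 in HGC-27 and 0.50 in HCT-8 cells (difference -0.45, standard error 0.07, adjusted p = 1.60e-05), and TAP1, a peptide transporter of antigen presentation, by 0.22 in Huh-7, 0.12 in HepG2, 0.57 in HGC-27 and 0.42 in HCT-8 cells (difference -0.32, standard error 0.05, adjusted p = 1.98e-05). HLA-E, a non-classical class I molecule, rose in all lines and more in the liver lines, with 1.30 in Huh-7, 1.11 in HepG2, 0.63 in HGC-27 and 0.94 in HCT-8 cells (difference 0.42, standard error 0.05, adjusted p = 3.09e-06).

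**Figure D5:**
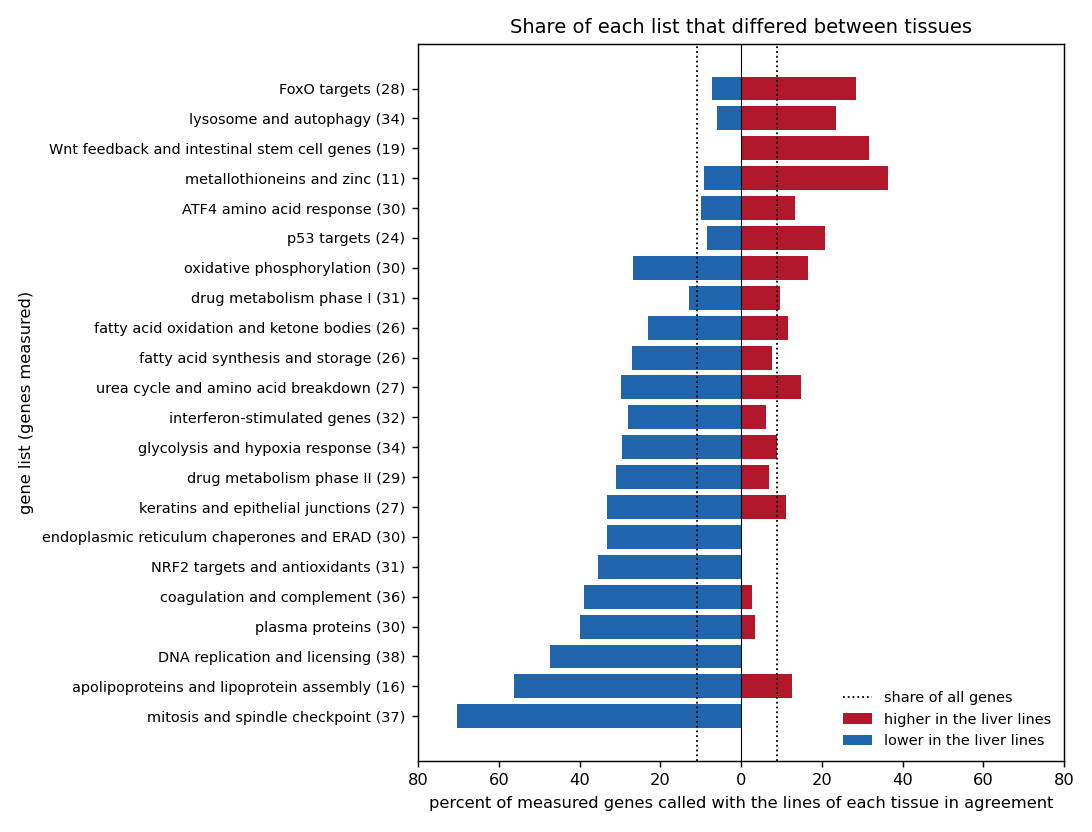
Percent of the measured genes of 22 lists (horizontal axis) that were kept as higher in the liver lines (red, to the right) or lower (blue, to the left), with the number measured in brackets and dotted lines at the shares of all genes, 8.97% higher and 10.9% lower. Mitosis (70.3%) and apolipoproteins (56.3%) have the largest lower shares, and metallothioneins (36.4%) and Wnt feedback (31.6%) the largest higher shares.

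In 245 kept genes all 4 lines had the signs of an opposite response, 92 higher in treated liver cells with a fall in the gut lines and 153 the other way. PECR, a peroxisomal enoyl-CoA reductase of fatty acid elongation, had, among these, the largest response in its weakest line, 0.40 in HCT-8. It read 5.97, 5.82 and 5.98 in melatonin-treated Huh-7 cells, against 6.68, 6.71 and 6.65 in Huh-7 controls, and 6.35 and 6.55 in melatonin-treated HepG2 cells, against 7.42, 7.29 and 7.32 in HepG2 controls. It read 5.90, 5.71 and 5.93 in melatonin-treated HGC-27 cells, against 5.21, 5.16 and 5.05 in HGC-27 controls, and 4.30, 4.38 and 4.46 in melatonin-treated HCT-8 cells, against 4.12, 4.03 and 3.77 in HCT-8 controls. Treated and control arrays did not overlap in any line, and the difference was -1.38 or 2.60-fold (standard error 0.08, adjusted p = 1.00e-10). PECR lay well above the median in the controls of every line.

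ISG20, an interferon-induced exonuclease, responded by -0.41 in Huh-7, -0.92 in HepG2, 0.35 in HGC-27 and 0.50 in HCT-8 cells (difference -1.09, standard error 0.10, adjusted p = 3.67e-08). RGS10, which shuts off G protein signaling, responded by -0.68 in Huh-7, -0.53 in HepG2, 0.24 in HGC-27 and 0.28 in HCT-8 cells (difference -0.87, standard error 0.09, adjusted p = 2.51e-07). SH3RF1, a scaffold of the JNK cascade, responded by -0.37 in Huh-7, -0.50 in HepG2, 0.29 in HGC-27 and 0.49 in HCT-8 cells (difference -0.83, standard error 0.07, adjusted p = 5.22e-09). These 3 fell in the liver lines and rose in the gut lines, each line passing the test on its own. SLC2A8, the glucose transporter GLUT8, showed the most even split, with -0.28 in Huh-7, -0.27 in HepG2, 0.40 in HGC-27 and 0.28 in HCT-8 cells (difference -0.61, standard error 0.05, adjusted p = 1.27e-08). TMEM39A, a protein of the endoplasmic reticulum, did likewise, with -0.38 in Huh-7, -0.29 in HepG2, 0.33 in HGC-27 and 0.42 in HCT-8 cells. The opposite order was rarer. TOPORS, a ubiquitin and SUMO ligase, rose by 0.36 in Huh-7 and 0.29 in HepG2 and fell by 0.33 in HGC-27 and 0.22 in HCT-8 (difference 0.60, standard error 0.08, adjusted p = 3.80e-06). MT1E, a metallothionein that binds zinc, responded by 0.37 in Huh-7, 0.38 in HepG2, -0.19 in HGC-27 and -0.33 in HCT-8 cells (difference 0.63, standard error 0.12, adjusted p = 3.04e-04). The zinc list gave 4 higher (36.4%) and 1 lower (9.09%) of 11, against 8.97% and 10.9% of all genes. MT2A rose in Huh-7 by 1.16 and by 0.33, 0.20 and 0.05 in HepG2, HGC-27 and HCT-8. Metallothionein genes are near-identical copies, so their probes may read each other.

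Of 14 measured genes of melatonin receptors, synthesis and breakdown, 6 differed between the tissues, of which 1 was kept as higher (7.14%) and 2, DDC and CYP1A1, as lower (14.3%). These shares are near those of all genes (8.97% and 10.9%). The CYP1A1 difference was -1.03, and it did not pass the test without Huh-7 cells. The receptors MTNR1A and MTNR1B did not pass the test, with differences of 0.09 (standard error 0.12, adjusted p = 0.636) and 0.18 (standard error 0.11, adjusted p = 0.223), and in control cells they were at percentiles 28 and 15 in Huh-7 and 27.2 and 14.5 in HGC-27. The synthesis enzymes AANAT and ASMT did not pass it either, with differences of 0.17 and -0.08. CYP1A2, the main hepatic enzyme of melatonin hydroxylation, had a difference of 0.00 (standard error 0.07, adjusted p = 0.977), for which the 95% interval reaches 0.14 to either side. DDC, the decarboxylase that makes serotonin, fell by 1.91 in Huh-7, 1.99 in HepG2 and 1.65 in HCT-8, against a response of -0.06 in HGC-27 (difference -1.09, standard error 0.09, adjusted p = 1.13e-08). Without HGC-27 cells the DDC difference of -0.30 did not pass the test. ASMTL, a relative of the synthesis enzyme ASMT, was the member kept as higher, with 0.17 in Huh-7, 0.21 in HepG2, -0.35 in HGC-27 and 0.10 in HCT-8 cells (difference 0.31, standard error 0.08, adjusted p = 0.00454), which was 0.09 without HGC-27 cells and did not pass the test. RORA, a nuclear receptor linked to the clock, and CYP1B1, a further hydroxylase, differed by 0.30 (standard error 0.11, adjusted p = 0.0389) and 0.24 (standard error 0.06, adjusted p = 0.00355) without agreement, and without HepG2 cells the differences were -0.23 and -0.09. Only 1 of 3 probe sets of RORA and 1 of 5 of CYP1B1 passed the test. NQO2, a quinone reductase that binds melatonin, was not kept, since its responses were 0.19 in Huh-7, -0.39 in HepG2, 0.51 in HGC-27 and -0.06 in HCT-8 cells.

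Of 30 genes of the ATF4 amino acid response, 27 rose in the liver lines and 27 in the gut lines. The tissue difference was kept as higher for 4 (13.3%) and lower for 3 (10%), against 8.97% and 10.9% of all genes. Another 11 differed without agreement of the lines. NUPR1, a stress-induced transcription regulator, responded by 2.0 in Huh-7, 2.24 in HepG2, 1.66 in HGC-27 and 0.69 in HCT-8 cells (difference 0.94, standard error 0.09, adjusted p = 1.13e-07). TRIB3, a pseudokinase induced by ATF4, rose by 0.76 in Huh-7, 0.69 in HepG2, 2.08 in HGC-27 and 0.79 in HCT-8, and its difference of -0.71 was -0.06 without HGC-27 cells and then did not pass the test. VLDLR, a lipoprotein receptor that ATF4 also induces, rose by 2.36 in Huh-7, 1.42 in HepG2 and 1.09 in HGC-27 and was near the bottom of the HCT-8 arrays. Cholesterol synthesis and uptake genes fell in both tissues, 15 of 20 genes in the liver lines and 17 in the gut lines. Of the 20, 4 were kept as lower (20%) and 2 as higher (10%), against 10.9% and 8.97% of all genes. Circadian clock genes gave 5 lower (27.8%, against 10.9% of all genes) and 1 higher of 18. The ErbB receptor and ligand list had 1 higher (7.69%, against 8.97% of all genes) and 0 lower of 13.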

How the data were processed

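The authors hybridized RNA to customized PrimeView arrays and deposited log2 values made by robust multi-array averaging, which corrects background, normalizes and summarises the probes of each of 49495 probe sets. The lines look normalized separately, which the sources used here do not state. The 45336 probe sets with 1 gene symbol in the array annotation, after 6 control probe sets were left out, were averaged per gene, which gave 18265 genes. The probe sets of a gene did not always all pass the test. It was 2 of 3 for APOA2, AMBP and DNAJB9, and 3 of 4 for SCD and GABARAPL1. Depth does not apply, and the number of arrays limits the precision.

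Responses were fitted with limma 3.58.1 in R 4.3.3 over 23 arrays with a term for each line and for its response, so all lines share 1 spread per gene, and p-values were adjusted by Benjamini-Hochberg over all genes, with a threshold of 5%. The word kept means that the test was passed and that the smallest of the 4 liver minus gut pair differences had the sign of the mean difference. Percentiles are of the group mean among all genes, and low means below the 25th percentile in treated and control cells. The fit was tested on simulated data in which both lines of a tissue had the same response. That test cannot show how differences between lines of a tissue affect the calls.

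The members and the 38 gene lists were chosen with earlier results of these data known, and lists were written from general knowledge. The genes named were the 15 highest and 15 lowest kept genes by smallest pair difference with at least 1 group mean in the upper part of all genes (from the median up), 8 genes per orientation of opposite response, up to 4 kept members of each list in its direction and 2 against it, and the melatonin list, of which some are given. HSPA5, MKI67, ALB, the promoters and their motifs were chosen after values were seen. Sequences are from RefSeq, GRCh38.p14. Alternatives were all 24 arrays with and without array weights, leaving out each array or line, a replicate block, the brightest probe set, a filter on dim genes, quantile normalization, centring, an intensity trend, a weight per group, an unmoderated model, a fold threshold, an adjusted p of 1% and 3 other rules of agreement.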

Additional observations from a re-analysis of the deposited data

Results flagged for a closer look

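The response differed between groups for many genes in every comparison of lines: for 5867 genes between the liver and the gut lines, for 5938 between Huh-7 and HepG2 and for 4349 between HGC-27 and HCT-8 (limma, adjusted p of 5%). Among the named genes, 5 went in opposite directions in the 2 lines of a tissue, each past the test in both lines. The Huh-7 minus HepG2 response was 0.63 for MANF, 0.70 for HSPA5, -0.83 for OSGIN1 and 0.57 for NQO2, and the HGC-27 minus HCT-8 response was 0.90 for CDC6. MANF, HSPA5 and NQO2 rose in Huh-7 and fell in HepG2 cells, OSGIN1 fell in Huh-7 and rose in HepG2 cells, and CDC6 rose in HGC-27 and fell in HCT-8 cells. Outside the gene table, 585 of 2682 probe sets with no gene listed and 280 of 1275 with several symbols differed between the liver and gut lines, and the lines agreed for 403 and 193 of them. These probe sets were fitted apart from the genes and are not named here.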

How the results depend on the processing

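The main limits are that each tissue stands for 2 lines, that HepG2 cells had 2 usable melatonin arrays and that low signal hides falls. With all 24 arrays the tissue difference passed for 3556 genes, the lower kept genes were 1166, those past 1.5-fold in all pairs 158 and the opposite ones 110, while Huh-7 and HepG2 differed for 3857 genes and HGC-27 and HCT-8 for 1813. With array weights on those 24 arrays, no count moved by over 1.5 times. HLA-E (-0.0702) and AMBP (-0.0384) changed sign with all 24 arrays. Without HepG2, where a tissue has 1 line and agreement is easier, 6442 genes were kept (2989 higher, 3453 lower), 1090 past 1.5-fold and 383 opposite, HSPA5 became 0.00038, RORA -0.23 and CYP1B1 -0.0879. The count past 1.5-fold in all pairs was 451 without Huh-7, 328 without HGC-27, 495 without HCT-8 and 165 with the brightest probe set. Without HCT-8, 400 were opposite, and without HGC-27 the CYP1B1 difference was -0.00399.

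When a difference of at least 1.5-fold was asked for, 764 genes differed between tissues and 616 were kept (271 higher, 345 lower, 71 opposite), 1936 changed in the liver lines, 779 in the gut lines, 1788 differed between Huh-7 and HepG2 and 868 between HGC-27 and HCT-8. At an adjusted p of 1%, 151 were opposite and 2826 differed between HGC-27 and HCT-8. Asking for the same side and the same sign kept 2296 genes (1037 higher, 1259 lower), and with the same sign 66 passed 1.5-fold in all pairs, by either form of that rule. Asking for 1.5-fold in all pairs kept 102 (37 higher, 65 lower, 14 opposite).

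Leaving out 1 array at a time gave 5225 to 5820 genes for the tissue difference, 3215 to 3657 kept, 1450 to 1681 higher, 1765 to 2023 lower, 92 to 138 past 1.5-fold, 211 to 246 opposite, 8794 to 9667 in the liver lines, 8132 to 8729 in the gut lines, 5130 to 6089 between Huh-7 and HepG2 and 3775 to 4401 between HGC-27 and HCT-8. Without HepG2 melatonin replicate 2 or 3, the lone array left was taken to vary like the other groups. RORA lost its call without any of 14 arrays, and it was 0.13 without HepG2 melatonin replicate 2. The replicate numbers did not pair the samples (11 pairs, correlations of deviations -0.04 to 0.06, 3 highest with their own number), and with the numbers as a block 5407 genes differed between tissues and 3474 were kept. Of 102 named genes, 77 kept their call and direction under all 39 settings that could be run for them.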
